A study of Mus musculus with 15 samples.

Results

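The genes described here are 10 genes of the aryl hydrocarbon receptor (AHR) and NRF2 pathways, chosen as the rows of the count table whose Ensembl identifier maps to the symbols Ahr, Ahrr, Cyp1a1, Cyp1b1, Tiparp, Nqo1, Hmox1, Gclc, Gclm and Txnrd1. They are 10 of the 56059 genes in the table, and all 10 passed the filter on low counts that kept 18651 genes for testing. They were measured by RNA sequencing of skin from mice with sclerodermatous chronic graft-versus-host disease after bone marrow transplantation, a condition that inflames and hardens the recipient's skin, and from syngeneic controls.

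Of the 4 groups, 3 were allogeneic recipients. One received Wnt-C59 at 5 mg/kg together with belumosudil at 150 mg/kg (the combination, n = 4), one received Wnt-C59 alone at 5 mg/kg (n = 4), and one received the vehicle, 0.4% methylcellulose (n = 3). The syngeneic recipients also received the vehicle (n = 4). All groups were dosed by mouth every day between day 21 and day 49 after transplantation, and no group received belumosudil alone. Wnt-C59 blocks porcupine, an acyltransferase without which Wnt ligands are not secreted. Belumosudil is a ROCK2 kinase inhibitor. The labels used here give neither mouse strains nor ages, and nothing in them says that the libraries of a group came from separate animals, so the p-values measure only the spread between these samples. The columns taken as the combination bear an abbreviation whose meaning the labels leave unexplained and were assigned by elimination, while the title of the series also names combinations with ruxolitinib and ibrutinib. Treated libraries are called by their column numbers, which differ from those in the sample titles.

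AHR is a transcription factor of the cytoplasm that enters the nucleus when it binds a ligand, such as a dioxin, a tryptophan metabolite or a plant indole. There it pairs with ARNT, binds DNA elements with a GCGTG core and induces the cytochromes P450 of family 1 together with its own antagonists, AHRR and TIPARP. NRF2, encoded by Nfe2l2, is held for degradation by KEAP1 and CUL3, escapes it under oxidative or electrophilic stress, and induces enzymes of glutathione, thioredoxin, heme and NADPH metabolism through antioxidant response elements. In skin, both pathways act in keratinocytes, sebocytes and immune cells, and Nqo1 answers to both.

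Promoter windows were available for 7 of the 10 members, in 9 windows from 250 bases before to 50 bases after the annotated start (RefSeq, build GRCm38.p6). The 4 shown belong to Cyp1a1 and Tiparp, which moved in opposite directions in allogeneic skin, and to Ahrr and Gclm, whose windows hold the longer elements. Capitals mark the AHR core GCGTG, its longer form TNGCGTG, which contains the core, and the antioxidant element TGACNNNGC, each searched on both strands, so that an element of the other strand shows as its reverse complement.
Cyp1a1, chr9:57697363-57697662, plus strand: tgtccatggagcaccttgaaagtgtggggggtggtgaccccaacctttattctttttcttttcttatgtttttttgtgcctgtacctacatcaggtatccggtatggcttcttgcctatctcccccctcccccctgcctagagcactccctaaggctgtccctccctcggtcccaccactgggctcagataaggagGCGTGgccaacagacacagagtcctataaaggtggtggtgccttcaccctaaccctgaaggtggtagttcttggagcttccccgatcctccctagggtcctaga
Tiparp, chr3:65528197-65528496, plus strand: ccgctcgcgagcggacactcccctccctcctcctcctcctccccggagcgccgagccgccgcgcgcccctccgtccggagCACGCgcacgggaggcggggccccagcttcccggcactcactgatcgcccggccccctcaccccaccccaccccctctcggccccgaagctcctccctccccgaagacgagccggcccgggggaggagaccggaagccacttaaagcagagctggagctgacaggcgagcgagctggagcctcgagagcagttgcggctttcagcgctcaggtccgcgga
Ahrr, chr13:74292282-74292581, minus strand: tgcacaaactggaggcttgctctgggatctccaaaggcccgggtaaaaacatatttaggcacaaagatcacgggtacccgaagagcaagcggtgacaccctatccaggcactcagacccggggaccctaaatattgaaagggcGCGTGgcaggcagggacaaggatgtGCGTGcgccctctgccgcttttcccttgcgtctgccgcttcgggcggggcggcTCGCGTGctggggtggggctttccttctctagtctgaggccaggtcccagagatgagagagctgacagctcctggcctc
Gclm, chr3:122245307-122245606, plus strand: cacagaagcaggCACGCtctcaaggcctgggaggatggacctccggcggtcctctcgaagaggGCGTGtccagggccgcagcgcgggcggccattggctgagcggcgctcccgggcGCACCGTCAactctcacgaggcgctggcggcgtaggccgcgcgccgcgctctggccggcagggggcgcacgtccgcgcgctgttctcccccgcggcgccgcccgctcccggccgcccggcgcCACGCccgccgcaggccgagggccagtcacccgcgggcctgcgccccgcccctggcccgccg
The Cyp1a1 and Tiparp windows each held 1 GCGTG core and neither longer element. The Ahrr window held 3 cores, 1 of them inside a TNGCGTG element, and the Gclm window held 3 cores and 1 TGACNNNGC element. Of the other windows, that of Cyp1b1 held 1 core, that of Nqo1 held none of the motifs, and the 3 windows of Txnrd1 held 1, 2 and 1 cores, with 1 TGACNNNGC element in the window with 2 cores. Among all 32851 promoter windows of the same length, 32.4% held GCGTG on either strand, 5.1% held TNGCGTG and 12.4% held TGACNNNGC. A match is a description of letters and not a bound site, and the well-studied AHR elements of mouse Cyp1a1 lie farther upstream than this window.

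Library totals ran between 19 and 28.8 M estimated counts in the 8 treated libraries and between 16.3 and 20.4 M in the 7 vehicle libraries. Treated and vehicle libraries differed in more than treatment. Fractional estimates made up 44.8% to 60.6% of the values above 0 in treated libraries, against 31.1% to 34.4% in vehicle libraries. The nuclear RNA Malat1 had 65 to 136 CPM (counts per M of the TMM-scaled library size) in treated libraries and 1070 to 3500 CPM in vehicle libraries. Log2 fold changes of each treated group against allogeneic skin followed GC content across genes, which are not independent replicates, with Spearman's rho of 0.541 for the combination and 0.504 for Wnt-C59, against -0.1 for allogeneic against syngeneic skin. Whether a fold change between treated and vehicle skin comes from treatment or from such a split between libraries cannot be told apart, so values or counts after removal of the GC trend are given beside the calls of the members and lists that they change. Allogeneic against syngeneic skin and the combination against Wnt-C59 stay within 1 side of that split. The combination against Wnt-C59 still had a rho of 0.167 with GC content, so it is not free of the trend. Wnt-C59 library 4 stood apart in having 1180 CPM of albumin, a liver transcript, where no other library exceeded 19.4 CPM. Without that library 1 member was called higher and 3 lower in Wnt-C59 against allogeneic skin, the same counts as with it. Markers of basal and differentiated keratinocytes were detected in every library.

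Per length of transcript (RPKM, mean of 15 libraries), Hmox1 was the most abundant member at 56.2 and Txnrd1 the next at 30.8. Gclc had 11.6, Ahr 8.25, Cyp1b1 6.9, Gclm 6.61, Nqo1 6.03, Tiparp 6 and Cyp1a1 5.52 RPKM. Ahrr was the lowest at 0.637 RPKM. All other levels below are CPM and are compared between samples, not between genes.

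**Figure D1:**
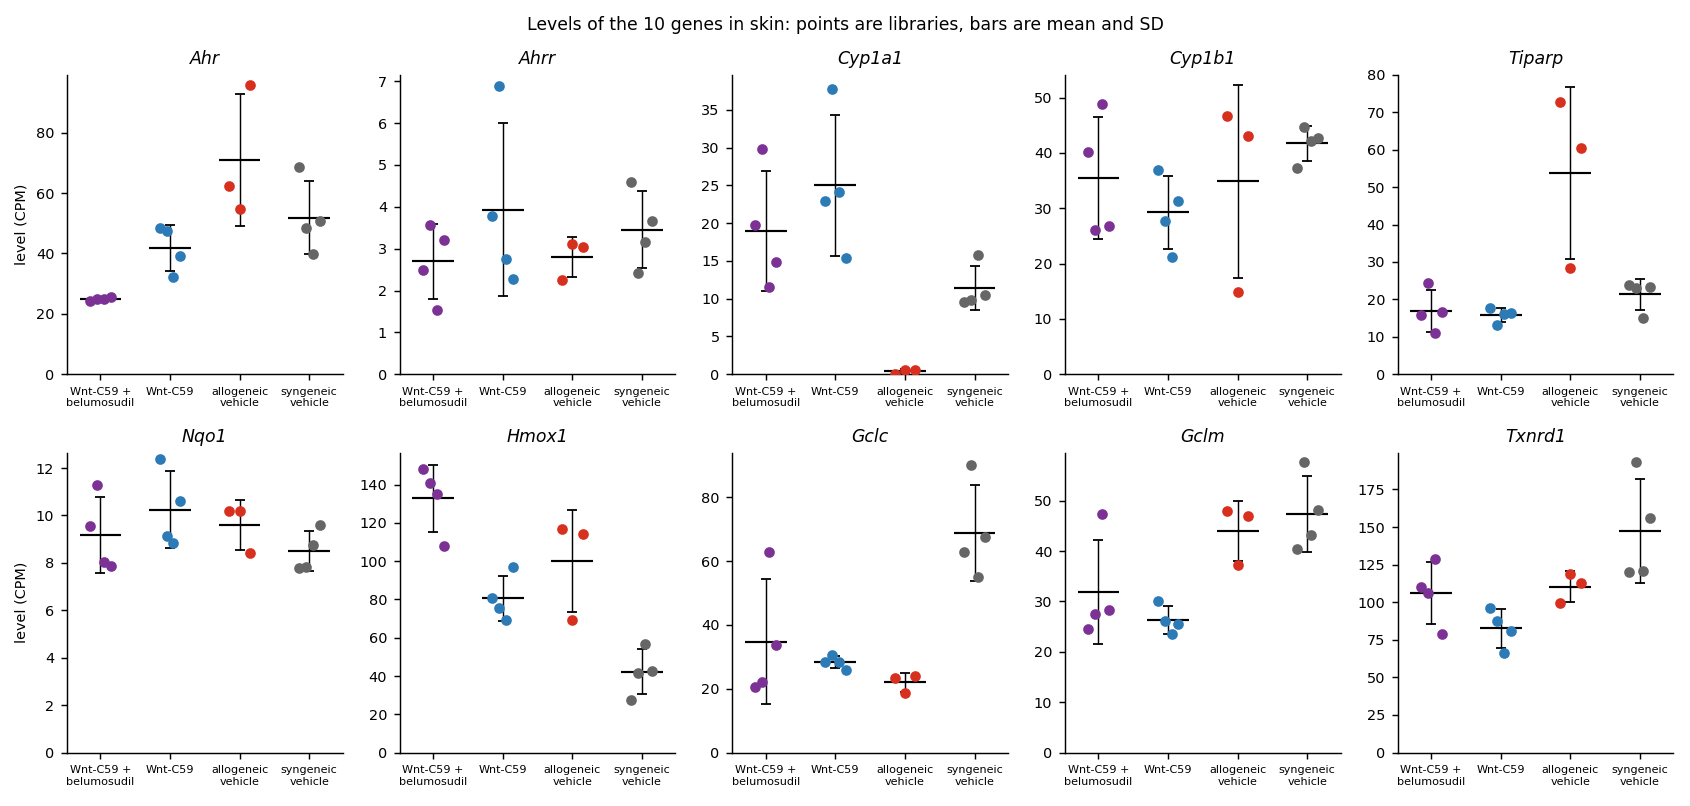
Levels of the 10 members in CPM in each library, one panel per gene; each point is 1 library and the bar with whiskers is the group mean with its SD (combination n = 4, Wnt-C59 n = 4, allogeneic vehicle n = 3, syngeneic vehicle n = 4). Cyp1a1 was below 1 CPM in the 3 allogeneic vehicle libraries and above 9 CPM in the other 12, and the 4 combination libraries had the 4 lowest Ahr values.

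The receptor gene, Ahr (ENSMUSG00000019256), had 24.2, 24.9, 24.8 and 25.5 CPM in combination skin. It had 48.5, 47.3, 32.2 and 39.3 CPM in Wnt-C59 skin, 62.4, 54.7 and 95.7 CPM in allogeneic skin and 68.5, 48.3, 39.7 and 50.9 CPM in syngeneic skin. Every combination library lay below every library of the other 3 groups, and every Wnt-C59 library lay below every allogeneic one. By edgeR's quasi-likelihood test with Benjamini-Hochberg adjustment over all genes, Ahr fell in the combination against allogeneic skin by 1.51 on the log2 scale (SE 0.21, adjusted p = 4.8e-05) and in Wnt-C59 against allogeneic skin by 0.76 (SE 0.21, adjusted p = 0.0074). The second call was lost without allogeneic library 3 (log2 fold change -0.50, adjusted p = 0.058) and after removal of the GC trend (-0.43, adjusted p = 0.081), while the first remained after that removal (-1.13, adjusted p = 0.00039). Combination skin was also below syngeneic skin by 1.06 on the log2 scale (adjusted p = 0.00045). Allogeneic against syngeneic skin did not pass the test (log2 fold change 0.45, SE 0.21, adjusted p = 0.12). It was called higher without allogeneic library 2 (0.65, adjusted p = 0.039) or syngeneic library 1 (0.63, adjusted p = 0.035), and was 0.23 (adjusted p = 0.45) without allogeneic library 3.

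Ahrr (ENSMUSG00000021575) encodes the AHR repressor, which competes with AHR for ARNT. It had 2.48, 3.56, 1.53 and 3.21 CPM in combination skin, 3.79, 6.89, 2.76 and 2.28 CPM in Wnt-C59 skin, 2.25, 3.11 and 3.04 CPM in allogeneic skin and 4.59, 2.41, 3.16 and 3.66 CPM in syngeneic skin. The 4 groups overlapped, and none of the 4 main comparisons passed the test (adjusted p = 0.32 to 0.92). With the GC trend removed, the log2 fold change of Wnt-C59 against allogeneic skin was 1.06 with an adjusted p of 0.045, against 0.49 and 0.32 as deposited.

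Cyp1a1 (ENSMUSG00000032315), the P450 enzyme whose induction is the usual readout of AHR activity, was nearly absent from allogeneic skin. Its levels were 19.7, 29.8, 11.6 and 14.9 CPM in combination skin, 22.9, 37.8, 24.1 and 15.4 CPM in Wnt-C59 skin, 0.0607, 0.599 and 0.564 CPM in allogeneic skin and 9.59, 9.88, 15.8 and 10.5 CPM in syngeneic skin. The allogeneic values rest on 1, 10 and 10 counts, and no library of another group came near them. Cyp1a1 was 27.5-fold lower in allogeneic than in syngeneic skin (log2 fold change -4.78, SE 0.55, adjusted p = 4e-05). It was 45.7-fold higher in combination than in allogeneic skin (5.51, SE 0.56, adjusted p = 6.7e-06) and 60.2-fold higher in Wnt-C59 than in allogeneic skin (5.91, SE 0.57, adjusted p = 6.1e-06). Leaving out 1 library at a time kept these log2 fold changes between -5.12 and -4.28, between 5.02 and 5.90 and between 5.42 and 6.28. Wnt-C59 skin was 2.19-fold above syngeneic skin with overlapping libraries (adjusted p = 0.022, a call lost without Wnt-C59 library 2 or without syngeneic library 1, 2 or 4), and combination skin did not pass the test against syngeneic skin (log2 fold change 0.73, adjusted p = 0.12).

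Markers of several cell types moved in the same directions as Cyp1a1, among them those of the sebaceous gland, the lipid-secreting appendage of the hair follicle. The summed level of 7 sebaceous gland markers ran between 1810 and 2910 CPM in combination skin, 1990 and 5890 CPM in Wnt-C59 skin, 369 and 1650 CPM in allogeneic skin and 2070 and 2940 CPM in syngeneic skin. Of the 7 markers, 4 fell and none rose in allogeneic against syngeneic skin, 4 rose in the combination and 6 rose in Wnt-C59 against allogeneic skin. Most of the sum was Scd1, at 816 CPM in allogeneic and 1910 CPM in syngeneic skin. Like Mgst1 and Soat1, it did not pass the test between these groups. The 4 that fell were Far2 (2.62 CPM in allogeneic against 152 CPM in syngeneic skin), Awat1 (0.193 against 35.9), Elovl3 (1.04 against 76.5) and Cidea (1.81 against 33.5). The median log2 fold change of the 7 was -4.2. None of the markers was at 0 in all libraries of a group. Of 6 fibroblast markers, 5 fell in allogeneic against syngeneic skin and 5 rose in each treated group against allogeneic skin, with sums between 2940 and 6480 CPM in combination, 3430 and 5690 CPM in Wnt-C59, 1240 and 2290 CPM in allogeneic and 3970 and 9670 CPM in syngeneic skin. Of 6 adipocyte markers, 2 fell in allogeneic against syngeneic skin and 5 rose in each treated group against allogeneic skin. In bulk skin, fewer cells of a type and less RNA per cell cannot be told apart, and 96.8% of the variance of the sebaceous marker score lay between the 4 groups, so the score and the groups cannot be separated by a covariate. The part of these cells in the Cyp1a1 result was not tested.

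Cyp1b1 (ENSMUSG00000024087), a related P450 enzyme prominent in stromal cells, did not follow Cyp1a1. It had 40.1, 26.1, 48.9 and 26.8 CPM in combination skin, 36.9, 27.7, 21.2 and 31.3 CPM in Wnt-C59 skin, 46.7, 14.9 and 43.1 CPM in allogeneic skin and 37.3, 44.7, 42.1 and 42.8 CPM in syngeneic skin. The groups overlapped in each of the 4 main comparisons, and none passed the test (log2 fold changes -0.26 to 0.28, adjusted p = 0.54 to 0.96).

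Tiparp (ENSMUSG00000034640) encodes an ADP-ribosyltransferase that is induced by AHR and marks the receptor for degradation. It had 15.7, 24.3, 11.0 and 16.5 CPM in combination skin, 17.6, 13.1, 16 and 16.4 CPM in Wnt-C59 skin, 72.8, 28.3 and 60.4 CPM in allogeneic skin and 23.9, 23.0, 15.0 and 23.4 CPM in syngeneic skin. All 3 allogeneic libraries were above all others, with library 2 the closest to them. Tiparp was 2.53-fold higher in allogeneic than in syngeneic skin (log2 fold change 1.34, SE 0.29, adjusted p = 0.0035), opposite in direction to Cyp1a1. It fell by 1.67 in the combination (SE 0.30, adjusted p = 3e-04) and by 1.77 in Wnt-C59 skin (SE 0.30, adjusted p = 0.00024) against allogeneic skin, on the log2 scale. Tiparp has the lowest GC content of the members (40.4%, against a median of 49.7% over tested genes), and with the GC trend removed the combination call was lost (-0.53, adjusted p = 0.16), the Wnt-C59 value was -0.82 (adjusted p = 0.038) and the allogeneic value was 1.28. With the mean level of adipocyte markers as a covariate, the allogeneic value was 0.55 (adjusted p = 0.39).

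Among the NRF2 targets, Nqo1 (ENSMUSG00000003849), a quinone reductase that both pathways induce, was the flattest. It had 9.54, 11.3, 8.03 and 7.87 CPM in combination skin, 12.4, 9.13, 8.85 and 10.6 CPM in Wnt-C59 skin, 10.2, 10.2 and 8.40 CPM in allogeneic skin and 7.80, 7.84, 8.74 and 9.61 CPM in syngeneic skin. The groups overlapped, and the log2 fold changes of the 4 main comparisons lay between -0.16 and 0.17 (adjusted p = 0.52 to 0.79). Wnt-C59 against syngeneic skin had 0.27 (adjusted p = 0.20) and was called higher with the GC trend removed (0.52, adjusted p = 0.028).

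Hmox1 (ENSMUSG00000005413) encodes heme oxygenase 1, which splits heme into biliverdin, iron and carbon monoxide and is strongly expressed by macrophages that clear red cells. It had 148, 141, 135 and 108 CPM in combination skin, 80.9, 75.3, 69.1 and 96.8 CPM in Wnt-C59 skin, 117, 69.2 and 114 CPM in allogeneic skin and 27.7, 41.8, 56.5 and 42.8 CPM in syngeneic skin. Every library of the 3 allogeneic recipient groups was above every syngeneic one, and every combination library was above every Wnt-C59 one. Against syngeneic skin, Hmox1 was 3.15-fold higher in the combination (log2 fold change 1.66, adjusted p = 3e-05), 1.91-fold higher in Wnt-C59 skin (0.93, adjusted p = 0.0022) and 2.37-fold higher in allogeneic skin (1.25, SE 0.23, adjusted p = 0.00095). Neither treated group passed the test against allogeneic skin, with log2 fold changes of 0.41 for the combination (SE 0.23, adjusted p = 0.14) and -0.31 for Wnt-C59 (SE 0.23, adjusted p = 0.27). With the GC trend removed Wnt-C59 was called lower (-0.67, adjusted p = 0.027).

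Macrophage markers moved with Hmox1 in some comparisons. The summed level of 8 markers ran between 1340 and 2310 CPM in combination skin, 1050 and 1700 CPM in Wnt-C59 skin, 3380 and 4490 CPM in allogeneic skin and 524 and 822 CPM in syngeneic skin. All 8 rose in allogeneic against syngeneic skin, where Hmox1 rose. In combination against allogeneic skin 5 of the 8 fell and in Wnt-C59 against allogeneic skin all 8 fell, while Hmox1 passed the test in neither. Combination and Wnt-C59 libraries overlapped in the macrophage sum and did not overlap in Hmox1. The macrophages' part in the Hmox1 result was not tested.

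Gclc (ENSMUSG00000032350) and Gclm (ENSMUSG00000028124) encode the catalytic and the modifier subunit of glutamate-cysteine ligase, the rate-limiting enzyme of glutathione synthesis. Gclc had 20.4, 22.1, 62.8 and 33.7 CPM in combination skin, 28.4, 30.6, 28.4 and 26.0 CPM in Wnt-C59 skin, 23.4, 18.7 and 24 CPM in allogeneic skin and 62.8, 90.2, 54.9 and 67.6 CPM in syngeneic skin. Apart from combination library 4, every library of the 3 allogeneic recipient groups was below every syngeneic one. Gclc fell by 1.65 in allogeneic against syngeneic skin on the log2 scale (SE 0.32, adjusted p = 0.0016), with -0.99 for the combination (adjusted p = 0.0093) and -1.28 for Wnt-C59 (adjusted p = 0.002) against syngeneic skin. Against allogeneic skin the log2 fold change was 0.66 for the combination (SE 0.31, adjusted p = 0.087) and 0.21 without combination library 4 (adjusted p = 0.42). The combination was called higher without combination library 2 (0.84, adjusted p = 0.027), without library 3 (0.82, adjusted p = 0.037) and with the GC trend removed (0.88, adjusted p = 0.031), and for Wnt-C59 the log2 fold change was 0.37 (SE 0.31, adjusted p = 0.35).

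Gclm had 24.6, 27.5, 47.3 and 28.3 CPM in combination skin, 30.1, 26.2, 23.6 and 25.5 CPM in Wnt-C59 skin, 47.9, 37.2 and 47.0 CPM in allogeneic skin and 40.5, 57.7, 43.1 and 48.1 CPM in syngeneic skin. Combination library 4 was again apart from the other treated libraries, all of which were below all vehicle libraries. The modifier subunit did not pass the test in allogeneic against syngeneic skin (log2 fold change -0.11, SE 0.21, adjusted p = 0.74), where the catalytic subunit fell. It fell by 0.74 in Wnt-C59 against allogeneic skin on the log2 scale (SE 0.21, adjusted p = 0.008). With the GC trend removed that value was 0.03 (adjusted p = 0.93). The combination gave -0.46 against allogeneic skin (SE 0.21, adjusted p = 0.07), -0.71 (adjusted p = 0.0024) without combination library 4, and 0.44 (adjusted p = 0.10) with the GC trend removed.

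The summed level of hair follicle markers was highest in the libraries in which Gclc was high. The summed level of 7 such markers was 58.1, 40.3, 31200 and 4190 CPM in combination libraries 2, 3, 4 and 5. It ran between 64.2 and 85.4 CPM in Wnt-C59 skin, between 1.46 and 9.16 CPM in allogeneic skin, where 1 of the markers was at 0, and between 4920 and 15200 CPM in syngeneic skin. All 7 fell in allogeneic against syngeneic skin, and all 7 rose in the combination against allogeneic skin. In Wnt-C59 against allogeneic skin 1 rose, Lhx2 (66.2 against 3.08 CPM, log2 fold change 4.42, adjusted p = 7.7e-05), and Gclc was not called. Combination library 5 had 33.7 CPM of Gclc at a follicle sum of 4190 CPM, and syngeneic library 1 had 62.8 CPM at 4920 CPM. The highest Gclc and Gclm values of the treated groups were in the combination library with the highest follicle sum, and the part of follicle cells in these results was not tested.

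**Figure D2:**
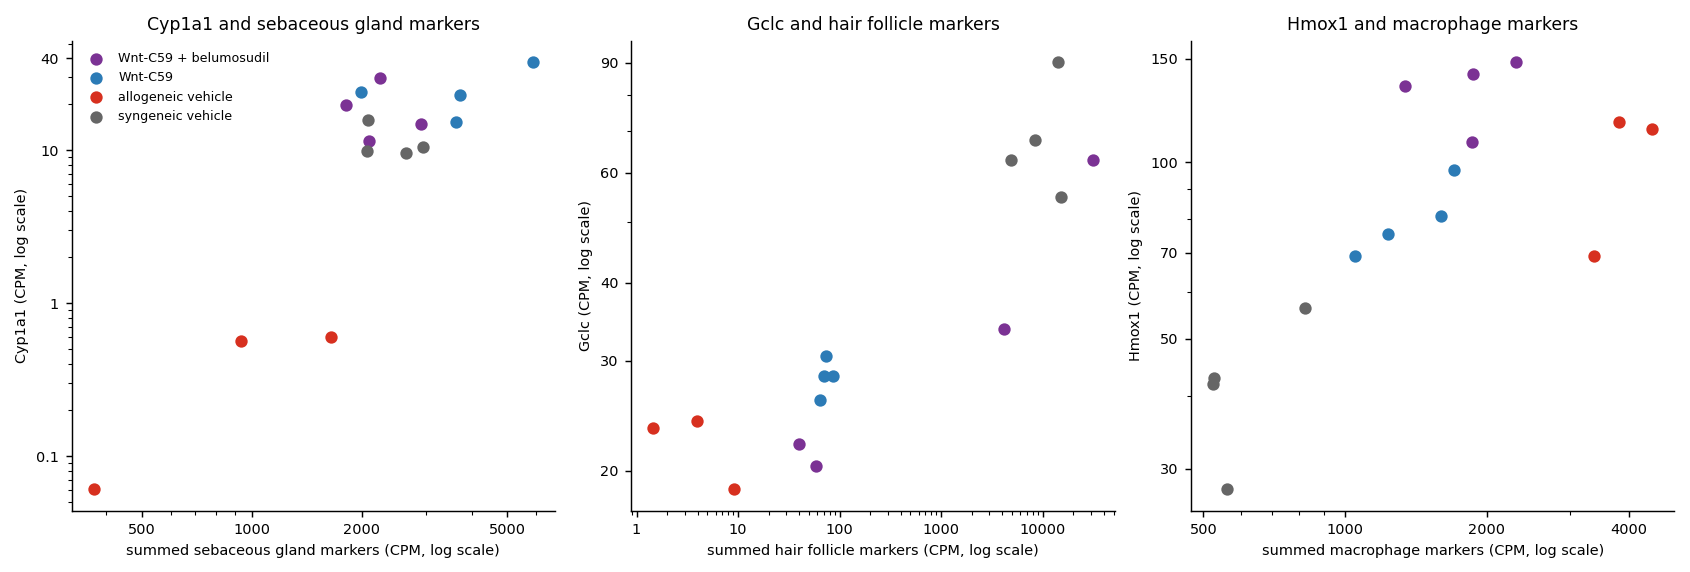
Levels of Cyp1a1, Gclc and Hmox1 (vertical axes, CPM, log scale) against the summed level of the sebaceous gland, hair follicle and macrophage markers (horizontal axes, CPM, log scale); each point is 1 of the 15 libraries, coloured by group. The 3 allogeneic vehicle libraries hold the 3 lowest sebaceous sums and the 3 lowest Cyp1a1 values, Gclc is above 50 CPM in the 4 syngeneic vehicle libraries and in combination library 4, and the combination libraries have 108 to 148 CPM of Hmox1 at macrophage sums of 1340 to 2310 CPM, against 69.2 to 117 CPM at sums of 3380 to 4490 CPM in the allogeneic vehicle libraries.

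Txnrd1 (ENSMUSG00000020250), the cytosolic thioredoxin reductase, had 110, 106, 129 and 78.7 CPM in combination skin, 96.2, 87.3, 66.0 and 80.6 CPM in Wnt-C59 skin, 99.2, 119 and 113 CPM in allogeneic skin and 120, 193, 121 and 156 CPM in syngeneic skin. The allogeneic and the Wnt-C59 libraries were all below the syngeneic ones, and the Wnt-C59 libraries were all below the allogeneic ones. None of the 4 main comparisons passed the test (adjusted p = 0.086 to 0.8). Against syngeneic skin Txnrd1 fell by 0.48 in the combination (adjusted p = 0.039) and by 0.84 in Wnt-C59 skin (adjusted p = 0.0017) on the log2 scale.

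Over the 10 members, allogeneic against syngeneic skin called 2 higher (Tiparp and Hmox1) and 2 lower (Cyp1a1 and Gclc). Among all genes tested, 14.6% were called higher and 15.1% lower in this comparison (29.8% in all), and the median log2 fold change was -0.18 for the members and -0.07 for all genes. The combination against allogeneic skin called 1 member higher and 2 lower, where 27.1% of all genes were called higher and 27.4% lower (54.5% in all), with medians of -0.06 for the members and 0.01 for all genes. Wnt-C59 against allogeneic skin called 1 higher and 3 lower, where 24.6% of all genes were called higher and 26.2% lower (50.8% in all), with medians of -0.28 and 0. Groups without overlap gave 2 members higher and 3 lower in allogeneic against syngeneic skin (16.7% and 19.9% of all genes), 1 higher and 2 lower in combination against allogeneic skin (25.6% and 26.4%) and 2 higher and 4 lower in Wnt-C59 against allogeneic skin (26.4% and 27.1%). Both treated groups were compared with the same 3 allogeneic libraries. The called members were 40%, 30% and 40% of the 10 in these comparisons, in the order given. That is above the share of all genes in allogeneic against syngeneic skin and below it in both treated groups. With 10 genes, 3 or 4 called are too few to weigh against those shares, so these counts are no result about the list. The called members did not share a direction.

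Against syngeneic skin, the combination called 1 member higher (Hmox1) and 4 lower (Ahr, Gclc, Gclm and Txnrd1), where 26.9% of all genes were called higher and 27.2% lower (54.1% in all), and the groups did not overlap for 1 member that was higher and 1 that was lower (23.7% and 23.8% of all genes). The Gclm and Txnrd1 calls of this comparison were each lost in 5 of the 8 fits that left out 1 library of either group. With the GC trend removed, the Gclm value was 0.26 (adjusted p = 0.28) against -0.57 (adjusted p = 0.022) as deposited, and the Txnrd1 call was lost (-0.45, adjusted p = 0.062). Tiparp was then called higher (0.75, adjusted p = 0.038), against -0.33 as deposited. Wnt-C59 against syngeneic skin called 2 members higher (Cyp1a1 and Hmox1) and 3 lower (Gclc, Gclm and Txnrd1), where 26% of all genes were called higher and 27% lower (53.1% in all). The groups did not overlap for 1 member that was higher and 4 that were lower (24.6% and 26% of all genes), and the Gclm call was lost with the GC trend removed (-0.14, adjusted p = 0.56).

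By the labels, the combination and Wnt-C59 groups were dosed with the same amount of Wnt-C59 over the same days and differ by the addition of belumosudil. For the libraries compared here, this holds only if the columns assigned by elimination are the combination. None of the 10 members was called between them by edgeR's quasi-likelihood test, where 0.231% of all genes were called. With the GC trend removed, 0 members and 59 genes in all were called. DESeq2 called 2 members and 1474 genes in all, and limma-voom called 0 members and 60 genes in all. In edgeR's test 2 members had an unadjusted p under 0.05. The share of all genes under that p was not counted, so this is no result about the members as a list. Those 2 members were Ahr, with a log2 fold change of -0.75 (interval of 2 SE from -1.15 to -0.36, adjusted p = 0.083; DESeq2 -0.74, adjusted p = 0.018), and Hmox1, with 0.72 (0.30 to 1.15, adjusted p = 0.099; DESeq2 0.74, adjusted p = 0.028). For both genes the 4 combination and the 4 Wnt-C59 libraries did not overlap, and among all genes tested 5.81% were higher and 7.28% lower without overlap. For the other 8 members the intervals of the log2 difference included 0 and remained wide. They ran from -1.15 to 0.36 for Cyp1a1, from -1.26 to 0.18 for Ahrr, from -0.45 to 0.65 for Tiparp, from -0.32 to 0.88 for Cyp1b1 and from -0.5 to 0.19 for Nqo1. For the remaining 3 they ran from -0.28 to 0.86 (Gclc), from -0.11 to 0.66 (Gclm) and from -0.01 to 0.73 (Txnrd1).

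**Figure D3:**
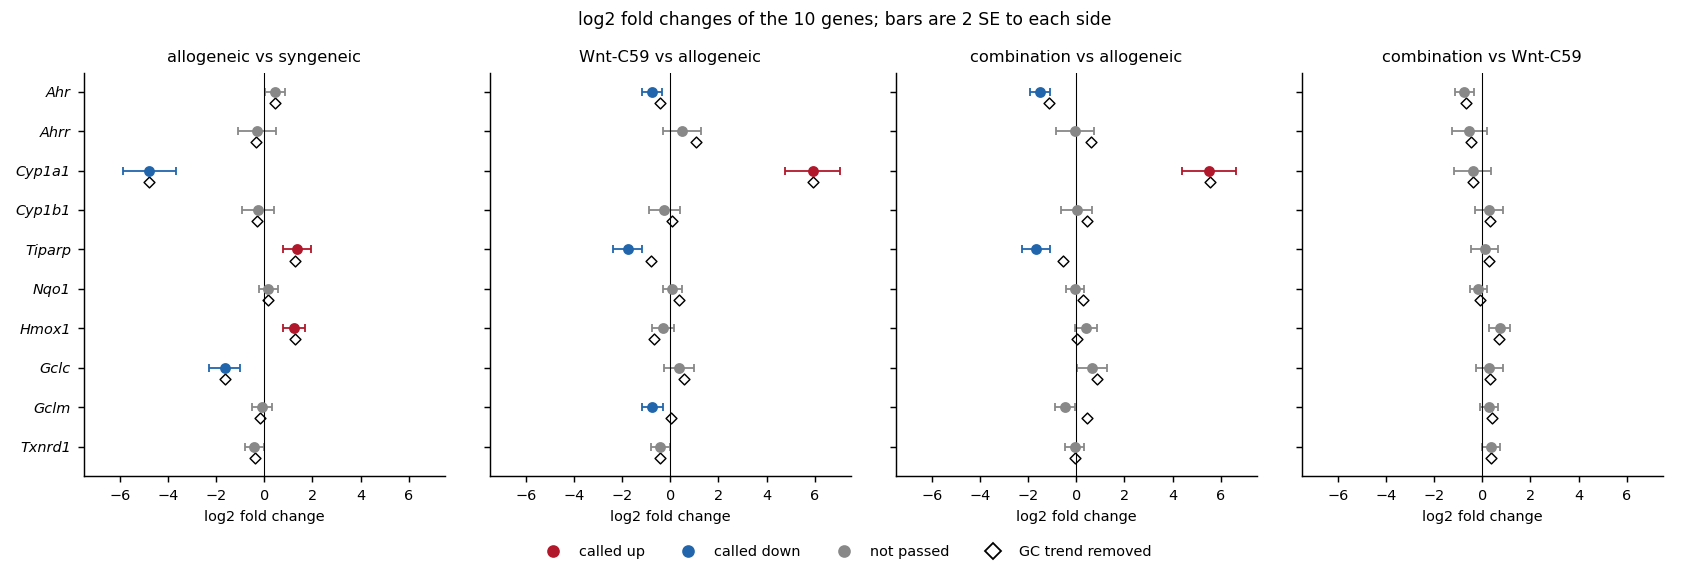
Log2 fold changes of the 10 members in the 4 main comparisons (filled points, with bars of 2 SE on either side) and the same after removal of the GC trend (open diamonds), by edgeR's quasi-likelihood fit to all 15 libraries. Cyp1a1 has the largest changes, at -4.78, 5.91 and 5.51, while Gclm in Wnt-C59 against allogeneic skin is at -0.74 as deposited and at 0.03 with the trend removed.

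Beyond the members, 58 other genes of both pathways were tested on 7 lists. In allogeneic against syngeneic skin 15 of them rose and 6 fell, and all 21 calls remained with the same sign when the GC trend was removed. These 21 are 36.2% of the 58, where 29.8% of all genes were called. In the combination and in Wnt-C59 skin, each against allogeneic skin, 21 rose and 12 fell, and 21 of the 33 calls remained in each. The 33 are 56.9% of the 58, near the 54.5% of all genes called in the combination and the 50.8% in Wnt-C59 skin, so these counts are no result about the lists, and those of each list below stand against the same shares. None was called between the combination and Wnt-C59 by edgeR's quasi-likelihood test, with 14 at an unadjusted p under 0.05. The share of all genes under that p was not counted, so the 14 are no result about the lists.

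The partners of AHR include its dimerisation partner ARNT and the chaperones that hold it in the cytoplasm. None of the 6 was called in allogeneic against syngeneic skin, where Hsp90aa1 had the smallest adjusted p (0.091; log2 fold change -0.55). Against allogeneic skin, 2 rose and 2 fell in each treated group, and with the GC trend removed 2 rises and 1 fall remained in the combination and 1 rise and 0 falls in Wnt-C59 skin. In the combination, Hsp90ab1 averaged 2360 ± 419 CPM against 1070 ± 166 CPM in allogeneic skin (SD; log2 fold change 1.15, adjusted p = 0.00036). In Wnt-C59 skin the co-chaperone gene Ptges3 fell, with a log2 fold change of -1.03 (adjusted p = 0.00038). Removal of the GC trend ended that call (-0.40, adjusted p = 0.13). Arnt had -0.59 in the combination (adjusted p = 0.0025), and -0.39 (adjusted p = 0.025) with the GC trend removed. In Wnt-C59 skin it had -0.37 (adjusted p = 0.039), a call lost with the GC trend removed (-0.20, adjusted p = 0.25).

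Of the 9 other AHR-inducible genes, Cyp1a2 and Il22 were too low to test. In allogeneic against syngeneic skin 3 rose and 1 fell. Ereg, a growth factor of the epidermal growth factor family, averaged 112 ± 38.6 CPM in allogeneic and 26.7 ± 5.5 CPM in syngeneic skin (SD; log2 fold change 2.07, adjusted p = 0.00043). Ugt1a7c, a glucuronosyltransferase, averaged 22 ± 11.6 against 4.32 ± 0.517 CPM (2.35, adjusted p = 0.00048), though genes of the Ugt1a cluster share exons and their counts are uncertain. The gene that fell was Aldh3a1, an aldehyde dehydrogenase, with 9.2 ± 5.67 CPM in allogeneic and 53.1 ± 19.3 CPM in syngeneic skin (-2.53, adjusted p = 0.00093).

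Aldh3a1 thus had its lowest group mean where Cyp1a1 had its lowest, and both genes were higher in the treated groups than in allogeneic skin. It averaged 127 ± 24.6 CPM in combination skin (log2 fold change against allogeneic skin 3.78, adjusted p = 2.9e-05) and 225 ± 62.2 CPM in Wnt-C59 skin (4.61, adjusted p = 1.3e-05). Both calls remained with the GC trend removed (3.41 and 4.26). Ereg fell against allogeneic skin by 1.99 in the combination (adjusted p = 2e-04; -0.75, adjusted p = 0.077 with the GC trend removed) and by 2.87 in Wnt-C59 skin (adjusted p = 2.2e-05; -1.83, adjusted p = 0.00081). In all, 1 of the 7 tested genes rose and 2 fell in the combination, and 2 rose and 3 fell in Wnt-C59 skin, and with the GC trend removed the rises remained and 1 fall remained in each.

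The enzymes of the route between tryptophan and kynurenine make several AHR ligands. Of 8, 2 rose and none fell in allogeneic against syngeneic skin. Ido1, indoleamine dioxygenase, had 19 to 97 counts in each allogeneic library and 0 in all 4 syngeneic ones, so that it was at least 22.8-fold higher (adjusted p = 0.00057) at a floor of 3 counts per library. Its paralog Ido2 also rose (log2 fold change 2.89, adjusted p = 0.019), at 7 to 27 counts per allogeneic library. In the combination, Ido1 fell by 2.74 (adjusted p = 0.015) against allogeneic skin. Il4i1, an amino acid oxidase of antigen-presenting cells, averaged 15.1 ± 9.98 CPM in the combination against 2.43 ± 1.44 CPM in allogeneic skin (SD; 2.64, adjusted p = 0.0016).

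In all, 2 of the 8 enzymes rose and 2 fell in the combination, and 2 rose and 1 fell in Wnt-C59 skin, each against allogeneic skin. In Wnt-C59 skin the formamidase Afmid rose by 1.07 (adjusted p = 0.0024), and Haao, an enzyme farther down the route, rose by 3.08 (adjusted p = 0.0069). The Haao value rested in part on Wnt-C59 library 4, which held 12.5 CPM where the other Wnt-C59 libraries held 0.871 to 1.47 CPM, and was 1.37 (adjusted p = 0.015) without it. In allogeneic against syngeneic skin Haao had -1.41 in the fit to all libraries (adjusted p = 0.21), at 7 to 10 counts per allogeneic library. It was called lower there when Wnt-C59 library 4 was left out of the fit (-1.41, adjusted p = 0.015). The call of Ido1 lower in Wnt-C59 skin (-2.09, adjusted p = 0.049) was lost without that library (-1.82, adjusted p = 0.11) and with the GC trend removed (-1.83, adjusted p = 0.091). In the combination, 1 of the 2 rises and both falls remained with the GC trend removed.

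Of 8 regulators and partners of NRF2, 5 rose and none fell in allogeneic against syngeneic skin. Nfe2l2 itself averaged 112 ± 26.9 CPM in allogeneic and 62.5 ± 0.971 CPM in syngeneic skin (SD; log2 fold change 0.84, adjusted p = 0.0011). Bach1, the repressor that competes with NRF2 at Hmox1 and other targets, averaged 153 ± 44.4 against 63.7 ± 10.8 CPM (1.26, adjusted p = 0.0014). In the combination Bach1 averaged 18.8 ± 3.53 CPM (-3.02 against allogeneic skin, adjusted p = 2.2e-06) and in Wnt-C59 skin 24.9 ± 7.08 CPM (-2.62, adjusted p = 5.5e-06), and both calls remained with the GC trend removed (-2.69 and -2.33). Cul3, the ubiquitin ligase scaffold, fell by 1.22 in the combination (adjusted p = 4e-05) and by 0.92 in Wnt-C59 skin (adjusted p = 0.00039), but had log2 fold changes of 0.11 and 0.19 with the GC trend removed. In all, 3 regulators rose and 3 fell in the combination and 2 rose and 3 fell in Wnt-C59 skin. With the GC trend removed, none of these rises remained and Bach1 was the 1 fall that remained in each. Nfe2l2 then had -0.16 in the combination (adjusted p = 0.43, against -0.49 and 0.015 as deposited) and -0.30 in Wnt-C59 skin (adjusted p = 0.15, against -0.58 and 0.0065).

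Of 11 further NRF2 targets in glutathione and thioredoxin metabolism, 3 rose and 2 fell in allogeneic against syngeneic skin, and 4 rose and 2 fell in each treated group against allogeneic skin. In the combination 3 rises and 1 fall remained with the GC trend removed, and in Wnt-C59 skin all of them did. Txn1, thioredoxin, averaged 611 ± 481 CPM in allogeneic and 121 ± 29.8 CPM in syngeneic skin (SD; log2 fold change 2.34, adjusted p = 0.00063), and fell by 2.39 in Wnt-C59 against allogeneic skin (adjusted p = 0.00024). Gss, glutathione synthetase, which acts after glutamate-cysteine ligase, averaged 12 ± 1.61 against 24.9 ± 5.48 CPM (-1.05, adjusted p = 0.00093), the same direction as Gclc. In the combination against allogeneic skin Gss rose by 1.09 (adjusted p = 0.00028), and Gpx2, a glutathione peroxidase of epithelia, averaged 22.3 ± 10.7 CPM against 2.82 ± 0.741 CPM (2.98, adjusted p = 7.9e-05). The glutathione transferase gene Gstm1 rose by 1.88 in Wnt-C59 skin (adjusted p = 0.00036). Txn1 has processed pseudogenes and Gstm1 close paralogs, so their counts are uncertain.

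Of 9 NRF2 targets in NADPH supply and conjugation, none rose and 2 fell in allogeneic against syngeneic skin (median log2 fold change -0.41), namely Taldo1, transaldolase (-0.80, adjusted p = 0.016), and Ephx1, microsomal epoxide hydrolase (-0.90, adjusted p = 0.021). In each treated group against allogeneic skin 7 of the 9 rose and none fell, with medians of 1.09 in the combination and 1.2 in Wnt-C59 skin, and 6 of the 7 calls remained in each with the GC trend removed. The calls lost were Cbr3, a carbonyl reductase, in the combination (0.46, adjusted p = 0.16) and G6pdx, glucose-6-phosphate dehydrogenase, in Wnt-C59 skin (0.41, adjusted p = 0.12). Ephx1 rose by 1.82 in the combination (adjusted p = 9.6e-05) and by 2.18 in Wnt-C59 skin (adjusted p = 3.6e-05). Tkt, transketolase, averaged 492 ± 41.9 CPM in the combination against 128 ± 15 CPM in allogeneic skin (SD; 1.94, adjusted p = 1e-04). Cat, catalase, averaged 215 ± 10.2 CPM in Wnt-C59 against 72.7 ± 24.1 CPM in allogeneic skin (1.56, adjusted p = 2.9e-05). Sebaceous and adipocyte markers were higher in both treated groups than in allogeneic skin as well, with 5 of 6 adipocyte markers called higher in each, and the part of these cells in the rise was not tested.

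Of 9 genes of heme and iron handling, 2 rose and 1 fell in each of these 3 comparisons, and with the GC trend removed 1 rise and 1 fall remained in each treated group. Fth1 and Ftl1, the ferritin chains, rose in allogeneic against syngeneic skin (1720 ± 573 against 527 ± 165 CPM for Fth1, SD, log2 fold changes 1.71, adjusted p = 0.00046, and 1.25, adjusted p = 0.002), where Hmox1 rose. Both ferritin genes have many pseudogenes. The gene that fell in that comparison was Slc40a1, with 11.3 ± 6.84 CPM in allogeneic and 143 ± 51.9 CPM in syngeneic skin (-3.67, adjusted p = 0.025). Slc48a1, a heme transporter, rose by 0.89 in the combination (adjusted p = 0.00022; 0.25, adjusted p = 0.081 with the GC trend removed) and by 0.99 in Wnt-C59 skin (adjusted p = 0.00013; 0.41, adjusted p = 0.011) against allogeneic skin. Blvrb, a biliverdin reductase, rose by 1.08 in the combination (adjusted p = 0.0012), and the macrophage hemoglobin receptor gene Cd163 fell by 3.92 in Wnt-C59 skin (adjusted p = 0.0063).

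Between the combination and Wnt-C59, the smallest adjusted p-values of the 7 lists belonged to Gpx2 (log2 fold change 1.5, adjusted p = 0.078), Me1, malic enzyme (-1.11, 0.096), Il4i1 (1.67, 0.10), Hp, haptoglobin (1.87, 0.12), Hsp90aa1 (0.68, 0.12), Ereg (0.88, 0.14) and Maff, a small partner of NRF2 (0.52, 0.25). None of these passed the test.

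**Figure D4:**
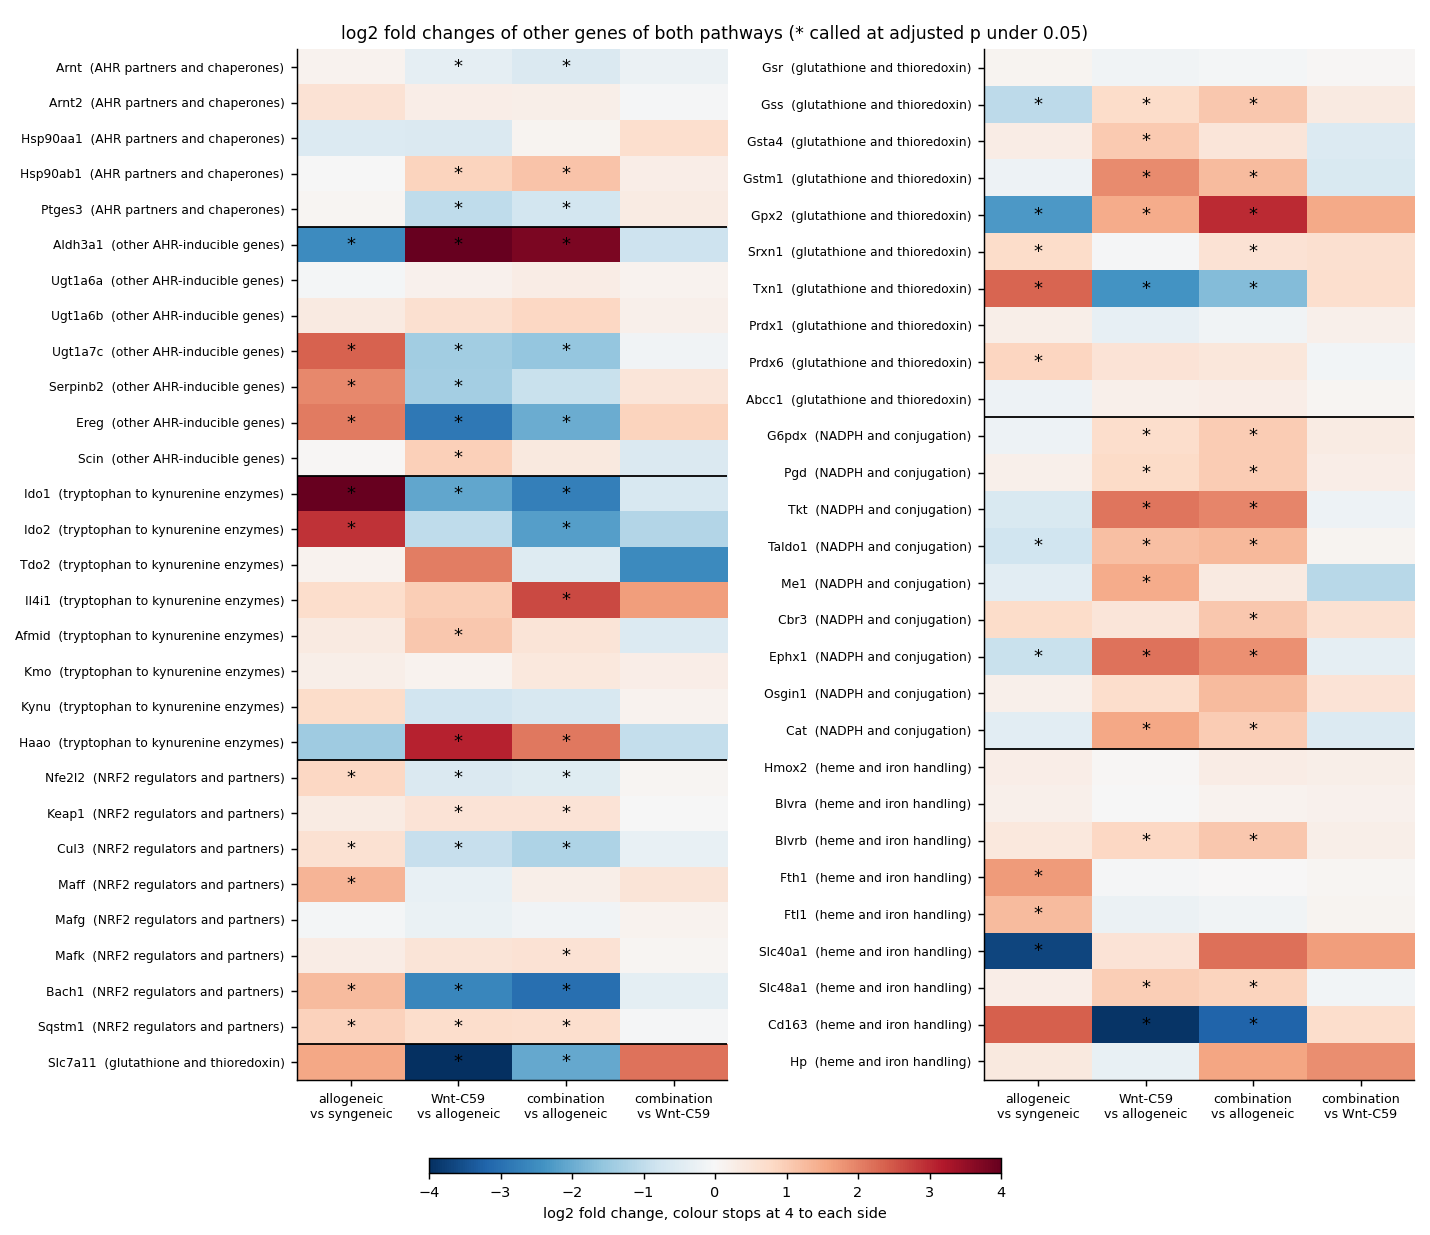
Log2 fold changes (colour, from lower in blue to higher in red) of the other genes of both pathways, apart from 1 that is not reported, in the 4 main comparisons, grouped by list; an asterisk marks an adjusted p under 0.05 by edgeR's quasi-likelihood test. The NADPH and conjugation list is red with asterisks for 7 of 9 genes in both treated groups against allogeneic skin, and no gene carries an asterisk in the combination against Wnt-C59.

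For the 6 members called in a main comparison, the 3 genes of most similar profile were taken by the smallest root mean square difference of log2 CPM, each centred on its own mean, over the 15 libraries and among 12087 genes. For Cyp1a1 they were Krt15, a keratin of basal keratinocytes that also stands on their marker list (0.59), Paqr7 (0.59) and Dgat2l6 (0.65). Krt15 averaged 2270 CPM in combination, 4150 CPM in Wnt-C59, 116 CPM in allogeneic and 1370 CPM in syngeneic skin. In allogeneic against syngeneic skin the other basal keratinocyte markers did not share that pattern. There Krt15 fell (-3.57, adjusted p = 2.8e-05), Krt14 rose (1.86, adjusted p = 0.00037) and the other 4 did not pass the test. The summed level of all 6 was 12700 to 17800 CPM in allogeneic and 6250 to 11100 CPM in syngeneic skin. Against allogeneic skin, 4 of the 6 rose in Wnt-C59 skin, Krt15 among them, and 1 fell. In the combination 3 rose and 1 fell. With the GC trend removed, 1 rise and 1 fall remained in each. For Ahr they were Dock9 (0.18), Mef2a (0.19) and Esyt2 (0.19), for Tiparp Jak2 (0.22), Adam9 (0.24) and Itga6 (0.26), and for Gclm Ptpn12 (0.10), Slc31a1 (0.15) and Eaf1 (0.15). For Hmox1 they were Ctsz, a lysosomal cathepsin (0.19), Tmem51 (0.23) and Pstpip1 (0.25), and for Gclc they were Acsl3 (0.15), Vangl2 (0.16) and Kctd6 (0.24). These differences are smaller for members that varied less, and the libraries share their depth and composition.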

How the data were processed

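Skin RNA was sequenced in 15 libraries of 4 groups. The table the authors deposited holds estimated counts per gene, many of them not whole, under versioned Ensembl identifiers. Per the submitters' processing notes, FastQC, Trim Galore, HISAT2 and featureCounts were used with build GRCm39. Versions, the step that gave fractions and the strand setting are not given in the sources used here. The design had assumed whole counts, so the estimated counts were rounded.

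Of 56059 identifiers, 51276 (91.5%) had a symbol in GENCODE M21 (GRCm38), used only for symbols, GC content and transcript length. Counts were scaled by TMM, filtered with filterByExpr (18651 genes) and fitted in edgeR 4.0.16 (R 4.3.3) with the quasi-likelihood test on all 15 libraries, group as the only term, and called at a Benjamini-Hochberg adjusted p under 0.05. The SE is the log2 fold change divided by the root of F, and intervals are 2 SE on either side. CPM uses the TMM-scaled library size, and RPKM the longest transcript. For removal of the GC trend, a lowess curve over GC content was taken out of each library as an offset. The steps were tested on simulated data in the 4 main comparisons, with 97 to 100 genes changed at each fold. They called 17.5% to 27.6% of 2-fold changes and 59% to 69.7% of 4-fold changes. A gene that did not pass the test may thus still have changed.

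The members and the gene lists were chosen with earlier results of these data known. All 10 members were named. From each of the 7 pathway lists the rule took up to 2 called genes with the smallest adjusted p per comparison, or the gene with the smallest where none was called, and the text names part of them. A gene that the rule took is counted but not reported here. Aldh3a1 and Slc40a1 in allogeneic against syngeneic skin were added after their values were seen. So were Arnt, the values of Lhx2, albumin, Malat1 and the hepatocyte markers. Alternatives used DESeq2 1.42.0, limma 3.58.1, other scaling and filters, only the groups compared, marker covariates and libraries left out. Columns of the 7 vehicle libraries carry replicate numbers. In allogeneic and syngeneic skin, libraries of the same number deviated from their group means with correlations of -0.07, -0.09 and -0.03. These show no likeness by number, but with so few libraries per group they cannot exclude a pairing. The labels do not say whether the numbers pair libraries, and the main fit did not pair them.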

Additional observations from a re-analysis of the deposited data

Results flagged for a closer look

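Of 30 sets of 4 libraries (each member in combination, Wnt-C59 and syngeneic skin), 3 held a value far from its group by Dixon's test at 95%, which chance gives in about 5% of sets. Gclm was at 47.3 CPM in combination library 4, against 24.6 to 28.3 CPM in the other combination libraries. Cyp1a1 was at 15.8 CPM in syngeneic library 3, against 9.59 to 10.5 CPM in the others. Tiparp was at 15.0 CPM in the same syngeneic library, against 23.0 to 23.9 CPM in the others. The groups of 3 allogeneic libraries were not examined this way.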

How the results depend on the processing

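No member changed its call with DESeq2's size factors, and 1 of 60 member results lost its call without the low-count filter. Leaving out 1 library at a time gave 430 of 450 member results on the same side of the threshold, 15 calls lost and 5 gained. The sign turned in 17 of the 450, none of them called in the fit to all libraries and none above 0.29 in size there. Members called ranged over 4 to 5 in allogeneic against syngeneic skin (genes called 3905 to 5076), 3 to 4 in Wnt-C59 against allogeneic (7942 to 9295), 3 to 4 in combination against allogeneic (8901 to 9814), 0 to 0 in combination against Wnt-C59 (1 to 45, with 1 reached without combination library 3), 4 to 5 in Wnt-C59 against syngeneic (8242 to 9939) and 3 to 5 in combination against syngeneic (8689 to 10238).

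Genes called in all were 5556, 9481, 10168 and 43 in the 4 main comparisons, in the order allogeneic against syngeneic, Wnt-C59 against allogeneic, combination against allogeneic and combination against Wnt-C59. With the adipocyte covariate they were 2220, 5090, 4538 and 65, and with the sebaceous covariate, added after seeing the data, 0, 0, 3 and 2. Between the groups, 68.7%, 91% and 96.8% of the variance of the adipocyte, macrophage and sebaceous scores was found, so these fits compare groups over little shared range. Combination against Wnt-C59 gave 1474 genes and 2 members with DESeq2 and 18 genes with only the groups compared. In allogeneic against syngeneic skin the replicate block, with only the groups compared, gave 2968 genes and left all 10 members on their side of the threshold. No paired analysis was possible for treated groups because their columns carry numbers other than those of the sample titles.

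Members called were 0 with the macrophage and 0 with the sebaceous covariate in allogeneic against syngeneic skin. In Wnt-C59 against allogeneic skin they were 1 with the adipocyte, 2 with the macrophage and 0 with the sebaceous covariate, and in combination against allogeneic skin 5 with the macrophage and 0 with the sebaceous covariate. Against syngeneic skin, the macrophage covariate left 0 in both treated groups. Signs turned in 10 of 60 member results with the GC trend removed, 16 with the macrophage and 8 with the sebaceous covariate. Those called with or without the alternative were, with the macrophage covariate, Hmox1 (-0.07) and Gclc (0.52) in allogeneic against syngeneic skin and Gclc (0.32) in combination against syngeneic skin, and, with the sebaceous covariate, Cyp1a1 (0.04) in allogeneic against syngeneic skin. With the GC trend removed they were Gclm (0.03) in Wnt-C59 against allogeneic skin and Tiparp (0.75) and Gclm (0.26) in combination against syngeneic skin. With the adipocyte covariate, calls were lost for Ahr (-0.73), Tiparp (-0.88) and Gclm (-0.69) in Wnt-C59 and for Tiparp (-0.63) in combination against allogeneic skin. With limma-voom, Gclm was called lower in combination against allogeneic skin (-0.52, adjusted p = 0.043). The cause was not tested. Depth limits Cyp1a1 in allogeneic skin, where it rests on 1 to 10 counts per library, and Ahrr.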

Other observations

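Cyp1a2, the P450 enzyme of the same family that liver expresses most, had 109 counts (5.68 CPM) in Wnt-C59 library 4, 2 counts in combination library 4 and 0 in the other 13 libraries. Tdo2, the tryptophan dioxygenase of liver, had 160 counts (8.33 CPM) in Wnt-C59 library 4 and 0 to 22 counts in the other libraries. A list of 7 hepatocyte markers, chosen after the albumin values were seen, summed to 1770 CPM in that library, to between 364 and 383 CPM in the other 3 Wnt-C59 libraries and to between 9.36 and 103 CPM in the remaining 11. In Wnt-C59 libraries 1, 2 and 5 albumin was at 0.718, 2.18 and 19.4 CPM, so nearly all of their sums came from other genes of the list.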
